A study of Mus musculus with 6 samples.

Results

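The genes described here are 10 enzymes and regulators that act on Notch receptors after their synthesis: Pofut1, Poglut1, Eogt, Lfng, Mfng, Rfng, Numb, Numbl, Itch and Nedd4. They were chosen by gene name among the 34745 genes of the count tables, and each name matched 1 gene. RNA-seq had been performed on the inguinal fat pad (IngWAT, a subcutaneous white adipose depot) of 3 SAKI mice and 3 WT mice. SAKI (Slc35d3 adipose-specific knockin) mice carried a Slc35d3 transgene behind a loxP-flanked stop sequence together with an adiponectin-derived Cre, which is active in adipocytes. The controls, called WT mice, had the Slc35d3 alleles of that cross but lacked Cre, according to the study's description of the line. All mice were males and were fed chow with 10 kcal% fat for 10 weeks, starting at 6 weeks and ending at 16 weeks of age, and are recorded as perfused with PBS. Since RNA came from the whole fat pad while the transgene acts in adipocytes, the values are means over all cell types of the depot, and fewer cells of a type cannot be told apart from less RNA per cell. The comparison asks whether genes that decorate Notch receptors with sugars, or send them for degradation, differed with Slc35d3 dosage.

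Notch receptors carry long arrays of EGF repeats that are modified with sugars on their way to the cell surface. In the endoplasmic reticulum (ER), Pofut1 attaches O-fucose, Poglut1 attaches O-glucose and Eogt attaches O-linked N-acetylglucosamine. In the Golgi apparatus the fringe enzymes Lfng, Mfng and Rfng extend O-fucose with N-acetylglucosamine, which changes how receptors respond to Delta and Jagged ligands. At the membrane, the adaptors Numb and Numbl and HECT-type ubiquitin ligases such as Itch and Nedd4 direct receptors to endocytosis and degradation.

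Lfng is also known as a direct Notch target in the mouse embryo, through CSL (RBPJ), the DNA-binding partner of cleaved Notch. The core of the CSL site, TGGGAA, was therefore searched on both strands in the 250 bases before each RefSeq transcription start (build GRCm38.p6), where 7 of the 10 genes had an entry, with 10 starts in all. It was found before 3 of these 10 starts, 1 each of Lfng, Poglut1 and Nedd4, and in 21.6% of all 32851 promoters. Lfng alone held 2 matches, of which 1 was part of the longer site GTGGGAA, present in 5.42% of all promoters. The promoters of Lfng (chr5:140607091-140607340, plus strand) and of Poglut1 (chr16:38550257-38550506, minus strand) are shown because they hold a match before their only listed start, with TGGGAA or its reverse complement TTCCCA in capitals.
Lfng: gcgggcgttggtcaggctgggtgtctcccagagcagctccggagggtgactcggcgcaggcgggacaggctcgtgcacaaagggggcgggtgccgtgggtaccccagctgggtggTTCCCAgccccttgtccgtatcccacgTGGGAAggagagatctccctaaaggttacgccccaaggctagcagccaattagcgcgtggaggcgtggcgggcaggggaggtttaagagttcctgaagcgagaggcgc
Poglut1: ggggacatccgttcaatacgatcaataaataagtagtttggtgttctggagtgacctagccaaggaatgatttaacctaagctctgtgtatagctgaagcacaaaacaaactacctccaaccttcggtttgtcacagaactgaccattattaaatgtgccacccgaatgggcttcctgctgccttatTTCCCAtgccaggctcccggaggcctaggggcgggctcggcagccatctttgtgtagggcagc
Counted from the start, the matches began at positions -135 and -108 in Lfng and at position -63 in Poglut1. A match of these letters is a description of the sequence and not a measured binding site.

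Library totals lay between 15354161 and 18787036 counts. Slc35d3 itself was at 745, 793 and 770 CPM (counts-per-million scaled with TMM factors, which correct for library composition) in SAKI mice 1 to 3, against 73.3, 82.1 and 74.4 CPM in WT mice 1 to 3, so every library matched its genotype label. These counts do not separate transgene from native transcripts. Markers of mature adipocytes such as Adipoq and Plin1 were abundant, and 12 of them summed to between 24056 and 27123 CPM in SAKI mice, against between 26312 and 35261 CPM in WT mice. Markers of skin and mammary epithelium summed to at most 8.54 CPM in SAKI mice and 21.7 CPM in WT mice, and no marker was at 0 in all libraries. The WT libraries were not alike. Mitochondrial genes took 13.1% to 15.9% of counts in SAKI mice, 13.8% in WT 2, but 7.31% in WT 1 and 8.78% in WT 3, and the first principal component likewise put WT 2 beside the SAKI libraries. The sum of 10 fibroblast and progenitor markers showed the same split, at 9398 to 10483 CPM in SAKI mice, 10346.5 CPM in WT 2, and 4177 to 5365 CPM in the other WT mice. The sum of 14 immediate early genes was 504 to 624 CPM in SAKI mice, against 628 to 1051 CPM in WT mice, with 13 of 14 genes below 0. Results are therefore also given without WT 2. That library was chosen by its values, being the WT library nearest to the SAKI libraries on the first principal component. Leaving it out tends to widen differences, so a gene that passes without WT 2 gains no independent support. The groups then did not overlap for 52.7% of all genes, against 31.6% to 35.8% with any other library left out.

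No gene of the 10 differed between SAKI and WT mice at an adjusted p under 0.05. With edgeR's quasi-likelihood test over 15400 genes, of which 0.0325% passed, the adjusted p of the 10 ranged from 0.268 to 0.854. Fitted log2 ratios of SAKI over WT (log2 fold changes, below with their standard error, SE) ran from -0.39 for Rfng to 0.23 for Lfng, with 6 below 0 and 4 above, and their median was -0.09 beside -0.0035 over all genes tested. At an unadjusted p under 0.05 edgeR passed 1 of the 10, Mfng, on the lower side, where 9.99% of all genes passed, and 0 of the 10 on the higher side, where 8.36% did. DESeq2 passed 0 of the 10, adjusted or unadjusted, against 4.50% of all genes at an adjusted p under 0.05. The libraries of both genotypes did not overlap for Mfng and Rfng, both lower in SAKI mice, where this held for 12.4% of all genes in that direction, and for 0 of the 10 in the higher direction, where it held for 13.0%. For a single gene an exact permutation test over 3 mice against 3 cannot go below p = 0.1, and Mfng and Rfng reached that value. On log2(FPKM + 1), limma passed 0 of the 10 at an adjusted p under 0.05, against 0.0724% of 12433 genes, with the adjusted p of Mfng at 0.277. At an unadjusted p under 0.05 limma passed Mfng on the lower side, against 8.15% of all genes, and 0 of the 10 on the higher side, against 9.65%.

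**Figure D1:**
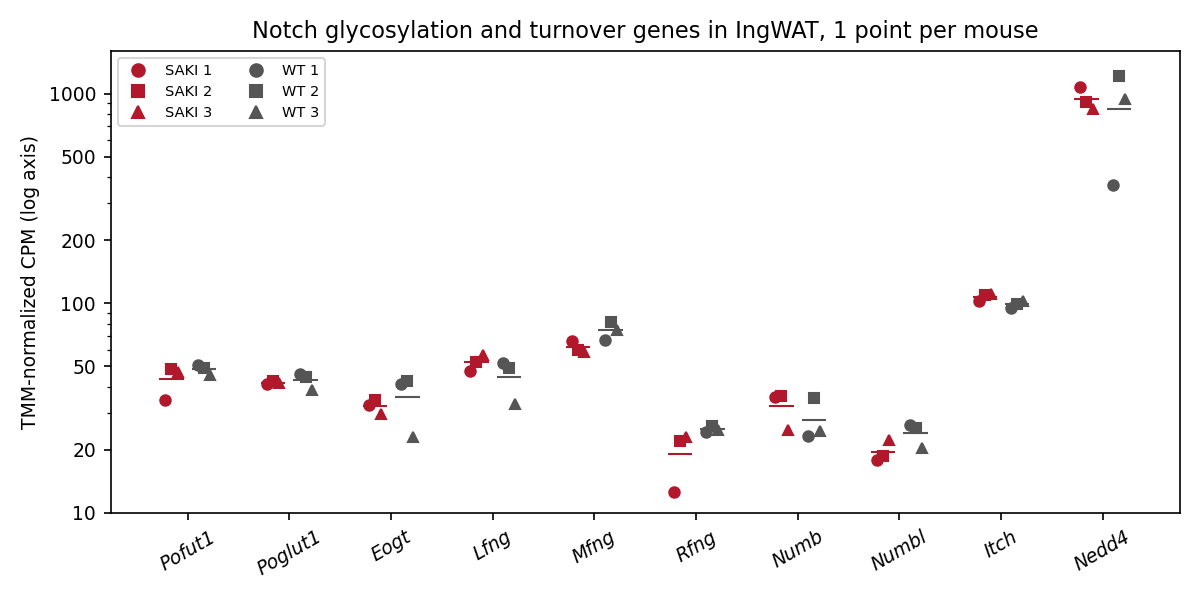
TMM-normalized CPM (log axis) of the 10 genes in IngWAT, with 1 point per mouse for SAKI mice (red, left of each pair) and WT mice (grey, right) and a line at each group mean. Mfng and Rfng are the genes whose groups do not overlap, and Nedd4 in WT 1, at 365 CPM, lies far below the other mice.

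Without WT 2, more genes of the transcriptome passed with edgeR, but none of the 10 did. The adjusted p from edgeR rose for Poglut1, to 0.928, and for Eogt, to 0.987, and fell for the other genes of the 10. The unadjusted p of Mfng from edgeR rose from 0.0468 to 0.105. At an unadjusted p under 0.05 edgeR then passed 0 of the 10, against 35.2% of all genes. Of 15693 genes then tested with edgeR, 7.41% passed on the higher and 9.14% on the lower side, and 0 of the 10 genes did in either direction. Their lowest adjusted p from edgeR was then 0.16, for Numb, and 5 of the 10 lay above 0 and 5 below. The groups did not overlap for 3 of the 10 without WT 2, against 52.7% of all genes. Without WT 3 they did not overlap for 7 of the 10, against 31.6% of all genes, and 2 of the 10, Eogt and Numbl, passed an unadjusted p under 0.05, against 12.5% of all genes. Of those 7, Itch was higher in SAKI mice, and Pofut1, Poglut1, Eogt, Mfng, Rfng and Numbl were lower. With the other libraries left out the count was 4 without SAKI 1 (34.3% of all genes), 2 without SAKI 2 (32.2%), 4 without SAKI 3 (32.8%) and 2 without WT 1 (35.8%). The adjusted p from edgeR without WT 3 stayed at 0.327 or above.

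**Figure D2:**
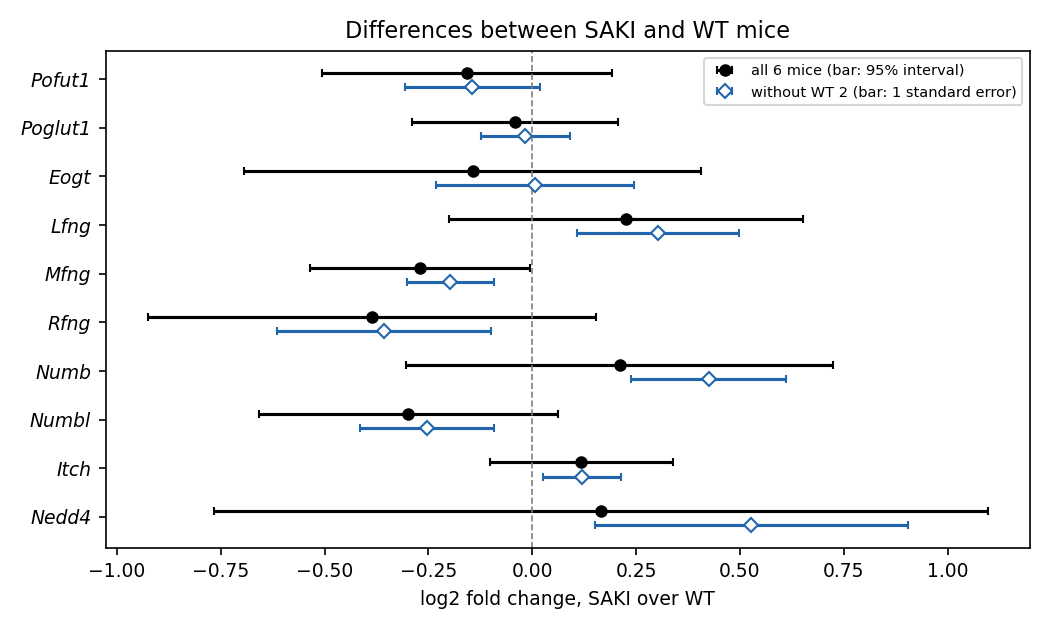
Log2 fold change of SAKI over WT for each gene, with all 6 mice (filled circles, bars for the 95% interval) and without WT 2 (open diamonds, bars for 1 standard error). The interval of Mfng, from -0.53 to -0.005, ends just below 0, and that of Nedd4, from -0.77 to 1.10, is the widest.

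None of the ER enzymes passed the test, and the SAKI and WT libraries overlapped for each of them. Pofut1 (chromosome 2, 153241533 to 153270247, GRCm38), without which Notch receptors signal poorly, was at 34.6, 48.6 and 46.9 CPM in SAKI mice 1 to 3 and at 50.6, 49.0 and 45.4 CPM in WT mice 1 to 3. SAKI 1 alone was low, while the other SAKI mice lay within the WT range. The means were 43.4 ± 7.62 CPM in SAKI mice and 48.4 ± 2.66 CPM in WT mice (SD, n = 3 each), which gave a log2 ratio of -0.16 ± 0.15 (SE, edgeR adjusted p = 0.588). With a library left out this ratio ran from -0.27 without SAKI 2 to -0.04 without SAKI 1.

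Poglut1 (chromosome 16, 38525137 to 38550258), known as Rumi in the fly, was the steadiest gene of this group. It stood at 41.4, 42.5 and 41.4 CPM in SAKI mice and at 46.0, 44.2 and 38.6 CPM in WT mice, so that all SAKI values fell inside the WT range. The averages were 41.8 ± 0.63 CPM in SAKI mice and 43.0 ± 3.86 CPM in WT mice (SD, n = 3 each). The fitted log2 ratio was -0.04 ± 0.11 (SE, edgeR adjusted p = 0.854). Its 95% interval, 0.82-fold to 1.15-fold, limits the difference that these libraries leave possible.

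Eogt (chromosome 6, 97110024 to 97149182) was at 32.6, 34.6 and 29.7 CPM in SAKI mice and at 41.4, 42.5 and 23.0 CPM in WT mice. The SAKI mice clustered between WT 3, the lowest library, and the other WT mice. On the log2 scale the difference of -0.14 ± 0.23 (SE, edgeR adjusted p = 0.763) depended on which WT mice were used, and was 0.0065 without WT 2 and -0.38 without WT 3. A gene on the opposite strand with overlapping exons, Gm44065, had at most 12 counts in any library, against 352 to 674 counts for Eogt.

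Among the fringes, Mfng and Rfng lay lower in every SAKI mouse than in every WT mouse, and Lfng did not. Mfng (chromosome 15, 78755882 to 78773475, minus strand) was at 66.1, 59.9 and 58.7 CPM in SAKI mice and at 66.8, 81.2 and 74.7 CPM in WT mice. The gap between the groups was narrow, from SAKI 1 at 66.1 CPM to WT 1 at 66.8 CPM. SAKI mice averaged 61.6 ± 3.96 CPM and WT mice 74.2 ± 7.22 CPM (SD, n = 3 each), which gave a log2 ratio of -0.27 ± 0.11 (SE, edgeR adjusted p = 0.268), or 0.83-fold with a 95% interval of 0.69-fold to 0.996-fold. Without WT 2, which had the highest value, the log2 fold change was -0.20 (adjusted p = 0.231 from edgeR).

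Rfng (chromosome 11, 120780746 to 120784207, minus strand), the fringe with the lowest level, was at 12.5, 21.9 and 23.0 CPM in SAKI mice and at 24.4, 25.9 and 24.9 CPM in WT mice. The WT mice were close together, with a mean of 25.1 ± 0.80 CPM, while SAKI 1 was far below the other SAKI mice, whose mean with it was 19.1 ± 5.77 CPM (SD, n = 3 each). The log2 fold change was -0.39 ± 0.23 (SE, edgeR adjusted p = 0.398). With a library left out it ran from -0.54 without SAKI 3 to -0.18 without SAKI 1. SAKI 1 had 192 Rfng counts in a library of 15586885, the lowest count of any of the 10 genes in any library.

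Lfng (chromosome 5, 140607320 to 140615545, plus strand), whose promoter is printed above, was at 47.6, 52.4 and 56.6 CPM in SAKI mice and at 51.8, 49.0 and 33.1 CPM in WT mice. The groups overlapped, and WT 3 was the lowest of all. SAKI mice averaged 52.2 ± 4.51 CPM and WT mice 44.6 ± 10.1 CPM (SD, n = 3 each). The fitted log2 ratio was 0.23 ± 0.18 (SE, edgeR adjusted p = 0.522), and it was 0.30 without WT 2 and 0.05 without WT 3.

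As shares of the summed fringe level per length, Lfng made up more of the fringe transcripts in every SAKI mouse. Per kilobase of each gene's principal transcript, Lfng accounted for 33.3%, 34.9% and 36.7% in SAKI mice 1 to 3 and for 32.2%, 27.6% and 21.7% in WT mice 1 to 3. The closest pair, SAKI 1 and WT 1, differed far less than the WT mice differed among themselves. Shares are parts of a fixed sum, so a low value of any fringe raises the shares of the others. In SAKI 1 Rfng was at 5.91 CPM per kilobase, against 10.4 to 12.2 CPM in the other mice. Lfng itself was at 20.6 CPM per kilobase in SAKI 1, below 22.5 CPM in WT 1 and 21.3 CPM in WT 2. The share of Mfng was 57.2%, 49.3% and 47.1% in SAKI mice and 51.3%, 56.5% and 60.6% in WT mice, and these ranges overlapped. On the deposited FPKM values the order was the same, with Lfng at 40.0% to 44.2% in SAKI mice and 27.3% to 39.3% in WT mice. The summed fringe level per kilobase was 64.7 ± 2.49 CPM in SAKI mice and 71.0 ± 5.55 CPM in WT mice (SD, n = 3 each), with overlapping groups. The share of Rfng per kilobase was 9.53% to 16.2% in SAKI mice and 15.9% to 17.8% in WT mice, with overlap. From FPKM it was 7.23% to 12.3% in SAKI mice and 12.4% to 14.1% in WT mice, without overlap. No background over all genes was computed for such shares. By level, 13.0% of all genes were higher and 12.4% lower in SAKI mice without overlap. The fringe shares are descriptions and were not tested.

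**Figure D3:**
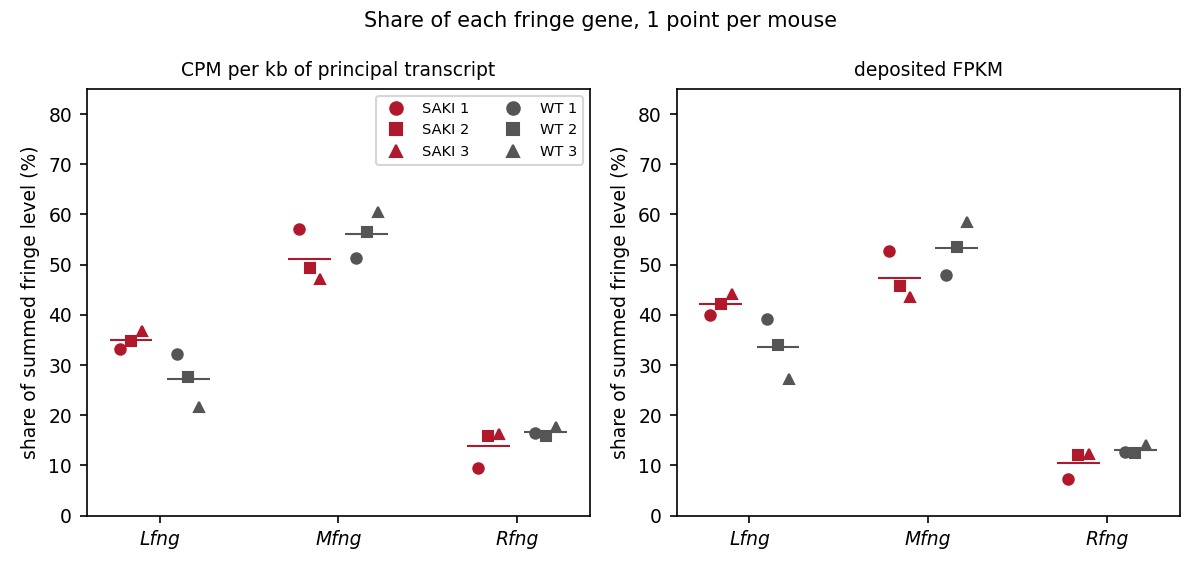
Share (%) of Lfng, Mfng and Rfng in the summed level of the 3 fringe genes, per kilobase of the principal transcript (left panel) and from the deposited FPKM values (right panel), with 1 point per mouse for SAKI (red) and WT (grey) and a line at each group mean. The Lfng share of every SAKI mouse lies above that of every WT mouse on both scales, with SAKI 1, where Rfng was low, close to WT 1. The Rfng share of every SAKI mouse lies below that of every WT mouse on FPKM only.

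Fringe genes are also active in lymphocytes and in the endothelium, and the values of their markers are given here beside the fringes. No gene of the marker lists passed an adjusted p under 0.05 with edgeR over all mice. At an unadjusted p under 0.05 edgeR passed 8 of 10 markers of T and NK cells on the higher side. It also passed 3 of 10 B cell and 3 of 10 macrophage markers there, against 8.36% of all genes. On the lower side it passed 5 of 12 endothelial and 1 of 10 fibroblast markers, against 9.99% of all genes. DESeq2 called 7 of 10 markers of T and NK cells and 1 of 10 macrophage markers higher. It called 1 of 12 endothelial and 1 of 10 fibroblast markers lower, against 4.50% of all genes in either direction. Without WT 2 edgeR called 6 of 10 markers of T and NK cells and 9 of 10 macrophage markers higher. It also called 7 of 10 fibroblast and 1 of 12 endothelial markers higher, against 7.41% of all genes. Lower were 1 of 10 fibroblast markers and 3 of 12 endothelial markers, against 9.14% of all genes. The 12 endothelial markers summed to 1591 to 1703 CPM in SAKI mice, against 1789 to 1973 CPM in WT mice, with 9 of 12 genes below 0. For markers of T and NK cells the sum was 555 to 622 CPM in SAKI mice, against 279 to 426 CPM in WT mice, with all 10 above 0. For 10 B cell markers it was 811 to 934 CPM in SAKI mice, against 523 to 922 CPM in WT mice, again with all 10 above 0. WT 2, the library with the highest Mfng, had the lowest sums of both lymphocyte lists. For 10 macrophage markers it was 2458 to 2957 CPM in SAKI mice, 2429 CPM in WT 2, and 1053 to 1300 CPM in the other WT mice, with 9 of 10 above 0. The part of these cells in the fringe values was not tested.

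Numb and Numbl, adaptors that counteract Notch in receiving cells, pointed in opposite directions without passing the test. Numb (chromosome 12, 83794034 to 83921934, minus strand) was at 35.9, 36.1 and 24.8 CPM in SAKI mice and at 23.4, 35.5 and 24.7 CPM in WT mice. In each group at least 1 library lay near 25 CPM and at least 1 near 36 CPM, so the groups overlapped almost fully. On the log2 scale the difference was 0.21 ± 0.22 (SE, edgeR adjusted p = 0.625). Without WT 2, the only high WT library, it was 0.42 ± 0.19 (SE, edgeR adjusted p = 0.16), and every SAKI mouse then lay above the remaining WT mice, by a margin of under 0.1 CPM for SAKI 3 over WT 3 in the scaling with all libraries. Reads of Numb could include those of an antisense gene with overlapping exons, Gm46367, which was not analysed here.

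Numbl (chromosome 7, 27258433 to 27282144, plus strand) was at 17.8, 18.7 and 22.2 CPM in SAKI mice and at 26.3, 25.4 and 20.5 CPM in WT mice. The groups overlapped only through SAKI 3 and WT 3. SAKI mice averaged 19.6 ± 2.34 CPM and WT mice 24.1 ± 3.14 CPM (SD, n = 3 each), which gave a log2 ratio of -0.30 ± 0.15 (SE, edgeR adjusted p = 0.337). Numb provided 75.4%, 74.6% and 62.9% of the summed level of the pair per kilobase in SAKI mice and 57.5%, 68.0% and 64.7% in WT mice. SAKI 3 lay inside the WT range and the other SAKI mice lay above it. A gene with exons overlapping those of Numbl on the same strand, Gm44641, had at most 3 counts in a library.

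The ubiquitin ligases had the narrowest and the widest 95% interval of the 10 genes, Itch and Nedd4. Itch (chromosome 2, 155133509 to 155226855, plus strand), a HECT ligase that ubiquitinates Notch together with Numb, was at 102, 110 and 110 CPM in SAKI mice and at 95.1, 98.9 and 103 CPM in WT mice. SAKI 1 and WT 3 overlapped by less than 1 CPM. SAKI mice averaged 107 ± 4.55 CPM and WT mice 99.0 ± 3.90 CPM (SD, n = 3 each), which gave a log2 ratio of 0.12 ± 0.09 (SE, edgeR adjusted p = 0.519). Its 95% interval was 0.93-fold to 1.27-fold.

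Nedd4 (chromosome 9, 72662346 to 72749852, plus strand), the founding member of its ligase family, whose fly counterpart acts on Notch, had the highest level per length of the 10. It was at 1069, 915 and 843 CPM in SAKI mice and at 365, 1214 and 944 CPM in WT mice. The SAKI mice lay within the WT range, which WT 1 alone stretched downward. Averages were 942 ± 116 CPM in SAKI mice and 841 ± 433 CPM in WT mice (SD, n = 3 each). The log2 fold change of 0.16 ± 0.39 (SE, edgeR adjusted p = 0.842) was therefore imprecise, with a 95% interval of 0.59-fold to 2.14-fold, and it turned to -0.20 without WT 1 (standard error 0.18, adjusted p = 0.597 from edgeR). Without WT 2 it was 0.53 ± 0.38 (SE, edgeR adjusted p = 0.364). WT 1 held 5949 Nedd4 counts against 14146 or more in every other library. WT 1 was also the library with the highest summed level of 8 skeletal muscle markers, 5581 CPM against 419 to 2822 CPM in the 5 other libraries. The library next to it in these markers, SAKI 1 at 2822 CPM, had the highest Nedd4 of the SAKI mice. The part of muscle in the Nedd4 values was not tested.

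Levels of different genes were compared per length. Per kilobase of the principal transcript and averaged over the 6 mice, the order was Nedd4 at 162 CPM, Mfng at 36.4, Lfng at 21.0, Itch at 19.4, Numb at 16.5, Poglut1 at 15.4, Rfng at 10.4, Pofut1 at 8.19, Numbl at 7.91 and Eogt at 7.68. On this scale Nedd4 lay above Mfng, and Mfng above Lfng, in every library of one against every library of the other. From Lfng to Poglut1 the values of each neighbour in the order overlapped, although Itch, at 17.9 to 20.8 CPM per kilobase, lay above Poglut1, at 14.0 to 16.7, in every library. The values of neighbours also overlapped from Rfng down to Eogt. In the authors' FPKM values the order was partly different, with Numb in place 8 and Eogt in place 7. On that scale the ranges of Nedd4 and Mfng overlapped, at 21.4 to 66.0 and 19.2 to 25.0 FPKM, as did those of Mfng and Lfng, the second at 10.6 to 19.5 FPKM. The gene length implied by counts and FPKM exceeded the union of annotated exons for all 10 genes, and it was 1.3 times the principal transcript for Lfng but 5.41 times for Numb, so the FPKM of Numb is scaled down more than that of Lfng.

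**Figure D4:**
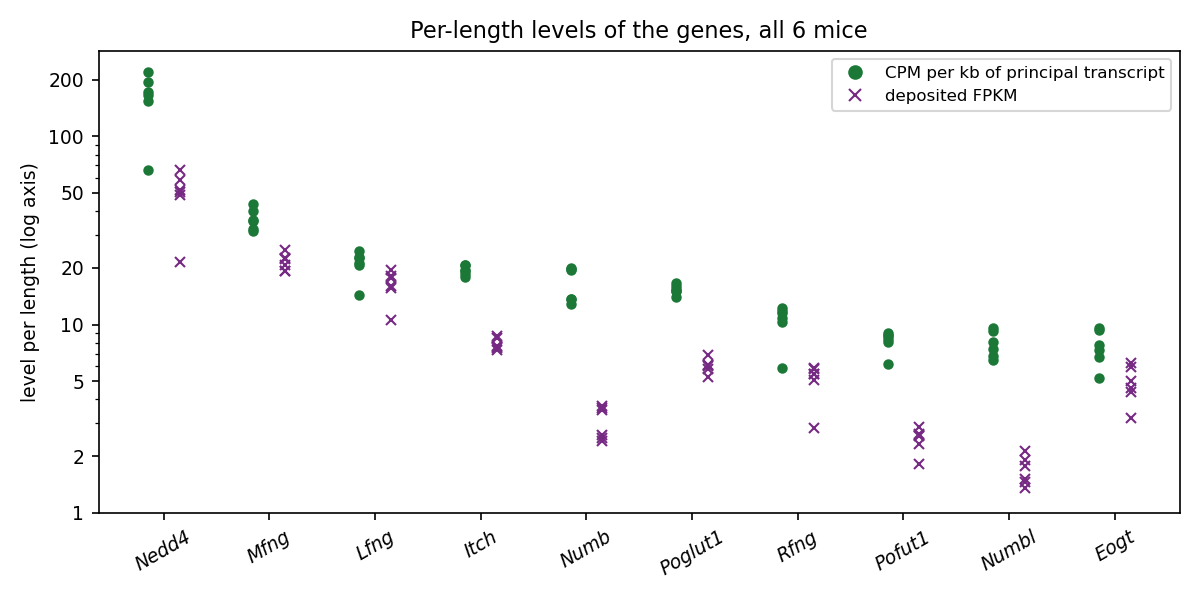
Level per length (log axis) of the 10 genes in the 6 mice, as CPM per kilobase of the principal transcript (green circles) and as the deposited FPKM (purple crosses), ordered by mean CPM per kilobase. Nedd4 has the highest mean on both scales, at 66.4 to 221 CPM per kilobase, while in WT 1 its FPKM of 21.4 lies below the 22.2 of Mfng, and the gap between the scales is widest for Numb and narrowest for Lfng.

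The other enzymes that build sugars on Notch, and the supply of their sugar donors, were likewise not called. Of 18 such genes, all were tested with edgeR and 0 passed an adjusted p under 0.05. At an unadjusted p under 0.05, 1 was higher and 0 lower, against 8.36% and 9.99% of all genes. Fitted values were positive for 7 and negative for 11, and their median was -0.02. The groups did not overlap for 1 higher and 2 lower genes of the 18, where this held for 13.0% and 12.4% of all genes. Slc35c1, the Golgi transporter of GDP-fucose, was at 28.0, 29.7 and 34.2 CPM in SAKI mice and at 24.5, 22.6 and 16.2 CPM in WT mice, with no overlap. Its log2 fold change was 0.54 ± 0.18 (SE, edgeR adjusted p = 0.211). Uxs1, which makes UDP-xylose, was at 12.3, 13.4 and 21.6 CPM in SAKI mice and at 27.1, 19.6 and 23.3 CPM in WT mice, and the groups overlapped, with a log2 ratio of -0.56. The fitted log2 ratio was 0.26 for Galnt11, which adds O-linked N-acetylgalactosamine to Notch1, and -0.64 for B4galt1, which adds galactose beyond the fringe product, with 139 to 184 CPM in SAKI mice and 188, 133 and 453 CPM in WT mice, where WT 3 stood apart. Leaving out WT 2, 1 of the 18 passed with edgeR on the higher side, where 7.41% of all genes did. This gene was Kdelc2 (Poglut3), another O-glucosyltransferase, which was chosen for naming after its values were seen. It was at 32.9, 38.1 and 33.3 CPM in SAKI mice and at 21.7, 42.9 and 17.6 CPM in WT mice, so that WT 2 was the highest library of all.

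Other ubiquitin ligases, their adaptors and endocytic sorting genes were not called by edgeR over all mice either. Of 35 genes, all were tested and 0 passed an adjusted p under 0.05. The fitted values of 24 were negative and those of 11 positive, with -0.16 as their median. The unadjusted p from edgeR was under 0.05 for 6 in the lower direction, against 9.99% of all genes. In the higher direction it was for 1, against 8.36%. The groups did not overlap for 9 lower and 3 higher genes of the 35, where this held for 12.4% and 13.0% of all genes. DESeq2 called 1 higher and 0 lower at an adjusted p under 0.05, against 4.50% of all genes in either direction. Without WT 2, edgeR called 6 lower, 17.1% of the 35, and 2 higher, 5.71%, to be read against the shares of 9.14% and 7.41% given for all genes.

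Cbl, a RING ligase that ends signaling of many surface receptors, was the gene DESeq2 called. It was at 151, 172 and 178 CPM in SAKI mice and at 124, 121 and 113 CPM in WT mice. All SAKI mice lay above all WT mice, and WT 2 lay between the other WT mice. On the log2 scale the difference was 0.49 (standard error 0.11), with an adjusted p = 0.163 from edgeR, adjusted p = 0.0179 from DESeq2 and adjusted p = 0.0324 from edgeR without WT 2.

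Ap2a2 and Ap2a1, the alpha subunits of the clathrin adaptor AP-2 that collects membrane receptors for uptake, were both lower in every SAKI library than in every WT library. Ap2a2 was at 172, 173 and 198 CPM in SAKI mice and at 261, 212 and 248 CPM in WT mice, a log2 ratio of -0.41 ± 0.12 (SE, edgeR adjusted p = 0.198, and 0.0289 without WT 2). Ap2a1 was at 58.7, 57.1 and 61.6 CPM in SAKI mice and at 84.9, 64.2 and 82.2 CPM in WT mice, a log2 ratio of -0.38 ± 0.13 (SE, edgeR adjusted p = 0.217, and 0.0183 without WT 2). In both genes WT 2 was the WT library nearest to the SAKI mice.

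Nedd4l, the closest relative of Nedd4, had a similar pattern to these. It was at 38.4, 39.2 and 37.9 CPM in SAKI mice and at 54.2, 41.2 and 55.5 CPM in WT mice, which gave a log2 ratio of -0.39 ± 0.13 (SE, edgeR adjusted p = 0.226, and 0.0161 without WT 2). The remaining genes called lower without WT 2, named after their values were seen, were Hgs, which sorts ubiquitinated receptors on endosomes, Dtx2, a Deltex ligase, and Usp12, a deubiquitinase. Adipocyte markers were below 0 for 12 of 12 genes and mural cell markers, with summed levels of 858 to 1053 CPM in SAKI mice, against 1230 to 1364 CPM in WT mice, for 10 of 10. Without WT 2 edgeR called 2 of 12 adipocyte and 3 of 10 mural markers lower, against 9.14% of all genes. DESeq2 with all mice called 3 of each list lower, against 4.50% of all genes in either direction. At an unadjusted p under 0.05 edgeR with all mice passed 5 of 12 adipocyte and 5 of 10 mural markers as lower, against 9.99% of all genes. The groups did not overlap for 5 of 12 adipocyte and 4 of 10 mural markers, all lower, against 12.4% of all genes. Their part in these values was not tested.

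**Figure D5:**
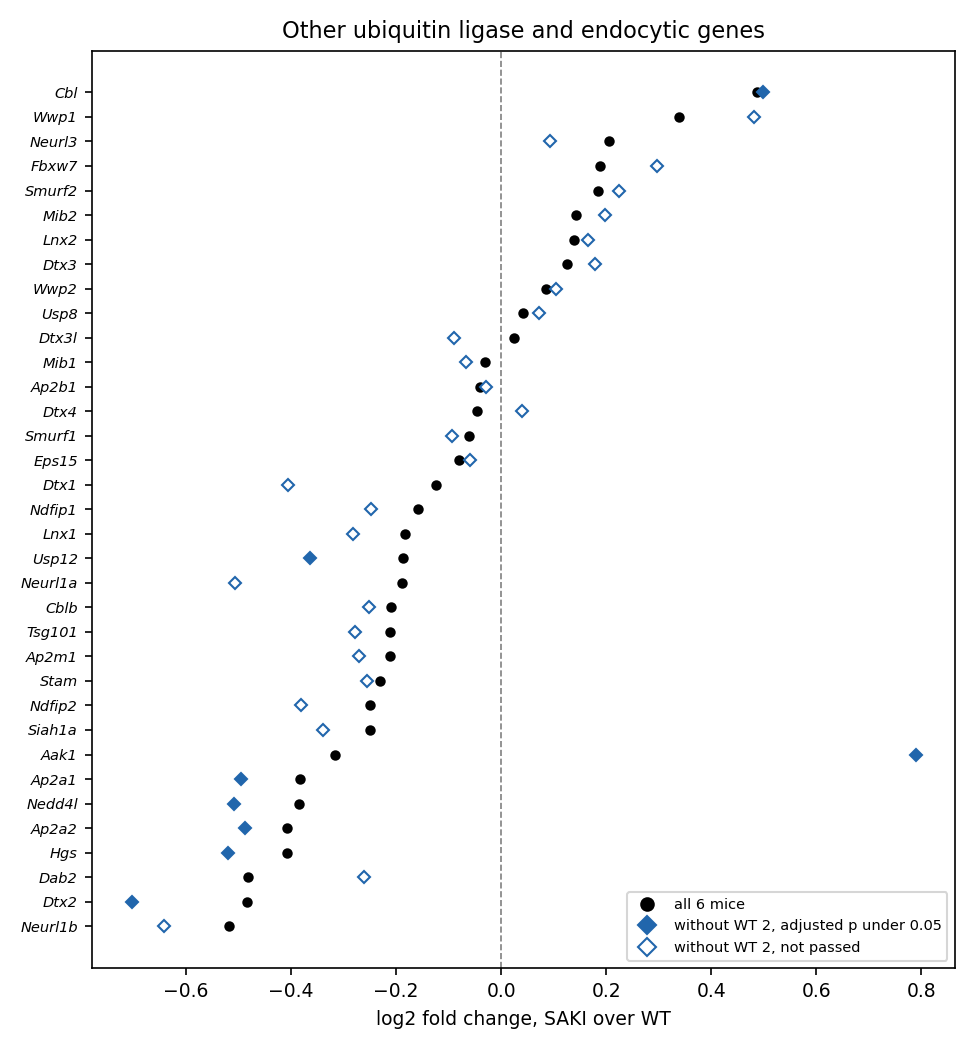
Log2 fold change of SAKI over WT for the 35 other ubiquitin ligase, adaptor and endocytic genes, with all 6 mice (black circles) and without WT 2 (diamonds, filled where the adjusted p from edgeR was under 0.05). Cbl is highest with all mice, at 0.49, and Aak1 is the gene whose value moves most, lying at -0.32 with all mice and at 0.79 without WT 2.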

How the data were processed

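IngWAT RNA of 3 SAKI and 3 WT mice was sequenced as poly(A)-selected libraries. The authors deposited raw counts per gene, 1 table per library, and an FPKM table of the same libraries, which holds these counts divided by a gene length and a library total. Tools named in the submitters' processing notes are StringTie 1.3.0, Bowtie2 2.2.6 and HISAT2 2.0.4, with the build GRCm38. Which tool counted reads, with which annotation and strand setting, is not given in the sources used here, and overlapping genes cannot be told apart. Groups and mouse numbers were taken from the sample titles.

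Counts were tested in R 4.3.3 by edgeR 4.0.16 (low counts removed by filterByExpr with min.count 10 and min.total.count 15, TMM factors, quasi-likelihood test, genotype alone, Benjamini-Hochberg adjustment over 15400 genes). The paper names no test for single genes of the RNA-seq data. Log2(FPKM + 1) was tested with limma 3.58.1 for 12433 genes that reached an FPKM of 1 in 3 or more libraries. Principal transcripts (APPRIS principal, the longest where there were several) and overlaps came from GENCODE M21 (GRCm38), and promoter sequences from RefSeq (GRCm38.p6). The steps were tested on simulated counts. The alternatives comprised DESeq2 1.42.0, limma-voom, scaling by RLE or upper-quartile factors, other filters, a replicate block, each library left out and, for FPKM, no filter or a pseudocount of 0.1.

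The 10 genes and the 12 lists (2 of other pathway genes, 10 of markers and handling genes) were chosen with earlier results of these data known. All 157 list genes were found in the files. Named from each pathway list were up to 4 genes of smallest p. Intervals cover the spread between mice (biological coefficient of variation 23.3%). The 10 genes had 192 to 18715 counts per library, against library totals of 15354161 to 18787036. No batch is recorded in the labels.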

Additional observations from a re-analysis of the deposited data

How the results depend on the processing

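The count of the 10 genes at an adjusted p under 0.05 was 0 in the comparison of all mice and in all 13 alternatives on counts, namely RLE, upper-quartile, DESeq2, limma-voom, both other filters, the replicate block and each library left out, and it was 0 on FPKM values with either pseudocount, without the filter and with each library left out. At an unadjusted p under 0.05 it was 1 with TMM and RLE, and 0 with upper-quartile factors, DESeq2, limma-voom, a mean of at least 5 CPM, no filter and the replicate block. With each library left out it ranged from 0 to 2, against 10.1% to 35.2% of all genes. The highest share was without WT 2, where 0 of the 10 passed. With TMM and all mice, 9.99% of all genes passed on the lower and 8.36% on the higher side. Shares of all genes are not given for the other settings. The count of genes with no overlap, 2 with TMM, RLE and upper-quartile factors, ranged from 2 to 7 with a library left out, 7 being without WT 3 (31.6% of all genes), 4 without SAKI 1 (34.3%) or SAKI 3 (32.8%) and 3 without WT 2 (52.7%). Over all genes, 5 passed an adjusted p under 0.05 with edgeR, 679 with DESeq2, 8 with no filter, 1 with the replicate block, and 1 to 2598 with a library left out, 2598 being without WT 2, 1 without SAKI 3 and 2 without SAKI 1 or SAKI 2. Signs turned for 3 of the 10 genes, none of them called: with a library left out, Poglut1 ranged from -0.11 without WT 3 to 0.010 without WT 1, Nedd4 from -0.20 without WT 1 to 0.53 without WT 2, and Eogt from -0.38 without WT 3 to 0.0065 without WT 2. The cause of these shifts was not tested.

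Mice with the same number in both groups did not deviate together beyond 0.07 (correlations over genes of 0.0656, 0.0672 and 0.0633), and no SAKI library correlated best with the WT library of its own number, so the numbers were not taken as pairs and the replicate block is given only here.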

Other observations

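Aak1, a kinase of the AP-2 complex that also phosphorylates Numb, was picked after its values were seen. It was at 19.0, 19.3 and 23.4 CPM in SAKI mice and at 12.0, 53.1 and 11.8 CPM in WT mice 1, 2 and 3. WT 2 was above every other library, and the remaining WT mice were below every SAKI mouse. The log2 fold change was -0.32 with all mice (adjusted p = 0.792 from edgeR) and 0.79 without WT 2 (standard error 0.14, adjusted p = 0.0202 from edgeR), so that for this gene 1 WT mouse decided the sign. Usp12, a deubiquitinase, showed the opposite arrangement, with 59.6, 60.8 and 61.2 CPM in SAKI mice and 78.2, 50.5 and 77.9 CPM in WT mice. Its log2 fold change was -0.36 without WT 2 (adjusted p = 0.0347 from edgeR). Within the 10 genes, the SAKI mice varied less than the WT mice for Poglut1, with SDs of 0.63 CPM and 3.86 CPM, and for Eogt, with SDs of 2.48 CPM and 10.9 CPM. The same held for Nedd4, with SDs of 116 CPM and 433 CPM, and for Lfng, Mfng and Numbl. The reverse held for Pofut1, with SDs of 7.62 CPM and 2.66 CPM, for Rfng, with SDs of 5.77 CPM and 0.80 CPM, and for Itch (SD, n = 3 each). In Pofut1 and Rfng, SAKI 1 was the low library. For Numb the SDs were nearly equal, at 6.47 CPM in SAKI mice and 6.64 CPM in WT mice. These spreads were not tested, and no share over all genes is given for them.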
